A study of Mus musculus with 6 samples.

Results

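Long intergenic non-coding RNAs (lincRNAs) are transcripts of genes that lie between protein-coding genes and hold no long open reading frame. Of 5624 genes that the GENCODE M21 annotation gives the biotype lincRNA and that the deposited count tables list, 114 had 50 or more read pairs in every one of 6 libraries, and these are described here. Of the 5510 others, 3757 had 0 read pairs in all 6 libraries and 1753 had at least 1 pair. The genes were chosen by their read pair counts in all 6 libraries, so their levels are given as a description. Just inside the limit were 1810012K08Rik, Gm14230 and Gm26530, each with a lowest library of 50 pairs, and just outside it were Gm20735 and Gm44066 at 48 pairs and Gm17586 at 49.

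The cells were GFPhi intestinal cells sorted from mice of strain B6.129P2-Lgr5tm1(cre/ERT2)Cle/J (Lgr5-eGFP-IRES-CreERT2), in which the Lgr5 locus, active in intestinal stem cells, drives GFP together with a tamoxifen-inducible Cre. Cells pooled from 4 mice on each of 3 days were embedded in Matrigel, about 200000 cells at 20000 per drop of 10 µL, in crypt medium with the Notch ligand peptide JAG-1 (1 µM) and the GSK3 inhibitor CHIR99021 (3 µM). After 4 h they received INT-777 (30 µM), a bile acid analogue that activates the receptor TGR5, or the solvent DMSO, with 3 libraries of each. All 6 libraries thus carry the Lgr5 reporter allele and both medium additions. The sample labels give 12 h of treatment and the design text 16 h. The replicate number is the day. The age of the mice was not given in the sources used here.

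lincRNAs act in several known ways. Some are architectural RNAs that hold nuclear bodies together, some bind and occupy proteins or microRNAs in the cytoplasm, and some are host genes whose introns or exons are processed into microRNAs or small nucleolar RNAs (snoRNAs). For many others the act of transcription near a neighbouring gene is the best studied property, and most genes known by a clone number have no assigned role. Among the 114 genes, 42 carried a RIKEN clone name and 50 a predicted-gene or clone-accession name, and 77 matched a RefSeq symbol.

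Several members are known for features of their sequence, which are shown here. Cyrano, annotated as 1700020I14Rik, carries an extended site for miR-7, a microRNA that it is known to direct to decay. The mature miR-7a is shown with its seed, bases 2 to 8, in capitals, and the Cyrano site at chr2:119602137-119602161, plus strand of GRCm38, with the letters that pair with the microRNA in capitals.
mmu-miR-7a-5p: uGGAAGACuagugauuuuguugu
Cyrano site: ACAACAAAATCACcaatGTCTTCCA
The site pairs with 8 bases at the microRNA's 5′ end and 13 bases at its 3′ end, 21 in all, and the next highest total among the 5624 lincRNA genes searched was 17.

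Miat (also called Gomafu), a nuclear RNA first described in neurons, carries repeats of TACTAAC, the letters of the intron branch-point sequence. It held 6 of them, more than any other lincRNA gene searched, while the next member held 1. The 3 most closely spaced lie at chr5:112216757-112216807, minus strand, in capitals.
Miat: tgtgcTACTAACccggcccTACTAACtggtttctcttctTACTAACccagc
These repeats were counted on the transcript strand. They are matches of letters and not measured binding sites.

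Several members are hosts of microRNAs. Mir17hg holds the miR-17~92 cluster, AL805899.1 holds miR-31, and 6720427I07Rik holds let-7a-1, let-7f-1 and let-7d. The mature forms are shown with the seed in capitals because the members of a seed family share targets. miR-17 and miR-20a share 1 seed, miR-19a and miR-19b another, and the 3 let-7 forms one more.
mmu-miR-17-5p: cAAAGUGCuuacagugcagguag
mmu-miR-20a-5p: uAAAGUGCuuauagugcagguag
mmu-miR-18a-5p: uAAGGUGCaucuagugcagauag
mmu-miR-19a-3p: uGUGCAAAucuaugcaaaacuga
mmu-miR-19b-3p: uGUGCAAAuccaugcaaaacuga
mmu-miR-92a-3p: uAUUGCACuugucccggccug
mmu-miR-31-5p: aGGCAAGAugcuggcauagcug
mmu-let-7a-5p: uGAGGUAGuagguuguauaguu
mmu-let-7f-5p: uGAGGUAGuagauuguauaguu
mmu-let-7d-5p: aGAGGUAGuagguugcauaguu
The libraries measured the long host transcripts, and the levels of the mature microRNAs were not measured.

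The hosts of snoRNAs belong to the class of transcripts that start with a C and a run of pyrimidines, the terminal oligopyrimidine tract, which ties translation and stability to growth signals. Of 10 annotated Snhg12 transcripts 3 started with C, and of 5 Snhg6 transcripts 2 did. The first 20 bases of the transcript of each with the longest starting run of C and T, in capitals, are shown, at chr4:132308676-132308695 (plus) for Snhg12 and chr1:9944099-9944118 (minus) for Snhg6.
Snhg12: CCTTTCTCgcttcatccgcg
Snhg6: CTTTCTCggcagcgccgtag

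Each library had 45682340 to 47905087 pairs on genes, and all 114 members were among the 15998 genes tested. RNA integrity numbers ran from 8.7 to 9.6, with the 2 libraries of day 3 at 8.7 and 9.0. The sorted cells carried Lgr5 at 53.7 to 74.5 CPM (read pairs scaled to 1000000 assigned pairs) and all 8 stem cell markers listed. The TGR5 gene Gpbar1 had 0 to 5 read pairs per library. Markers of immune cells, stroma and endothelium were near 0, summing to between 0.217 and 3.82 CPM over each list in every library, whereas goblet and enteroendocrine markers were abundant and highest on day 3, as given beside the results they touch.

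Of the assigned pairs, the 114 genes together took 0.155%, 0.156% and 0.175% on days 1, 2 and 3 with DMSO and 0.153%, 0.153% and 0.155% with INT-777. The DMSO library of day 3 was the highest, and the difference of −0.00822 percentage points was not past the threshold (exact permutation test, two-sided, p = 0.2, where 3 against 3 libraries allow no p under 0.1). A few genes held most of these pairs. The 2 most abundant genes took 38.7% of the members' CPM, the top 4 took 53.3% and the top 10 took 71.5%. The median member stood at 2.72 CPM, 20 members were above 10 CPM and 81 below 5 CPM.

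Neat1, the RNA scaffold of the nuclear bodies called paraspeckles, was the most abundant by CPM, at 428, 444 and 553 on days 1, 2 and 3 with DMSO and at 424, 417 and 433 with INT-777. Malat1, a neighbour of Neat1 on chromosome 19 and a component of nuclear speckles, followed at 162, 172 and 143 with DMSO and 179, 178 and 141 with INT-777. In both treatments Malat1 was lowest on day 3, the day on which the DMSO library had its highest Neat1. Norad (2900097C17Rik), a cytoplasmic RNA, stood at 106, 104 and 113 CPM with DMSO and at 103.9, 101 and 102 with INT-777, the narrowest range of the top 4.

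Levels of different genes can be set side by side only per length. Per kilobase of merged exons the members had a median of 1.38 CPM, against 8.37 CPM for the protein-coding genes that passed the same limit of 50 pairs, and 14 members lay above that protein-coding median. Compared with its own nearest protein-coding gene, the lincRNA had the lower level per kilobase in 76 of 114 cases. On this scale Malat1 (23.3 CPM per kilobase), Neat1 (21.6), Norad (21.4), Epb41l4aos (20.99), Cyrano (15.2) and Snhg6 (14.1) were all above the protein-coding median. Neat1, with 20771 exonic bases, led by CPM but not per kilobase.

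Some of the highest values could not be assigned to the lincRNA with certainty. Gm10076 was the highest of all per kilobase, at 224 CPM per kilobase. RefSeq lists it as a pseudogene. It matched the mRNA of the ribosomal protein gene Rpl41 over all 383 bases of its transcript at 99.5% identity. Pairs that mapped to several places were not counted. Whether the pairs counted at Gm10076 came from Rpl41 mRNA cannot be told from the counts. Gm26917 lies in the copy of the 45S pre-ribosomal RNA that this assembly carries on chromosome 17. Its DMSO libraries held 66.2, 66.7 and 108 CPM and its INT-777 libraries 78.1, 71.5 and 67.8. Norad matched another lincRNA gene, Gm7292, over 2537 bases, 51.6% of its transcript, at 99.2% identity. In all, 32 of the 114 genes had a stretch of at least 100 bases with 95% or more identity in another annotated transcript. RefSeq lists Tmem250-ps, 1810058I24Rik and D930016D06Rik as protein-coding genes.

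**Figure D1:**
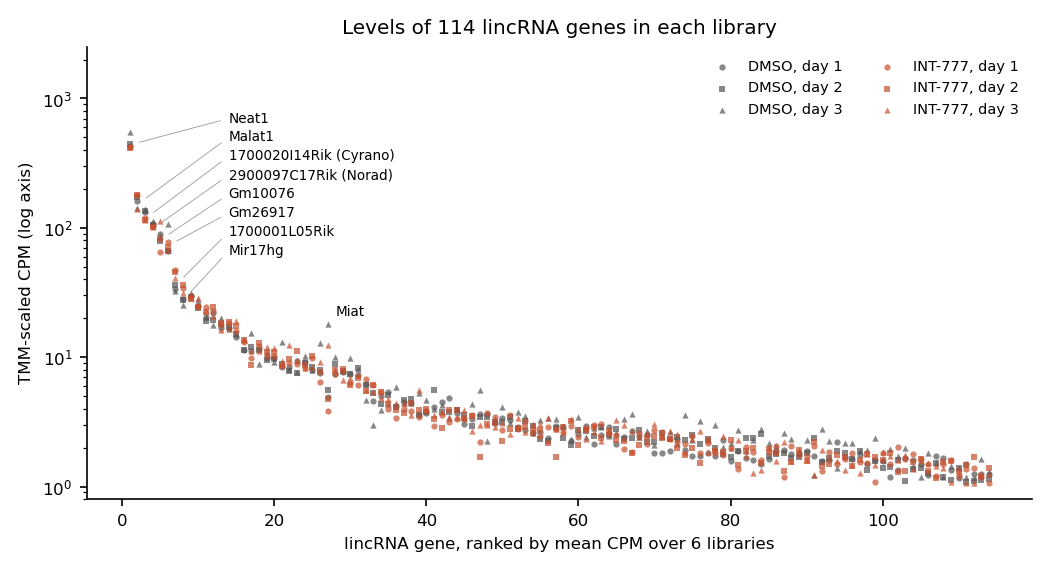
The 114 lincRNA genes are ranked on the x axis by mean CPM over the 6 libraries, with TMM-scaled CPM of each library on a log y axis (grey, DMSO; orange, INT-777; circle, square and triangle for days 1, 2 and 3). Levels run from 450 CPM for Neat1 to 1.23 CPM, and Miat stands out for the gap between its 2 day 3 libraries and the other 4.

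The members differed from other lincRNA genes in their structure, as the annotation gives it. Their median exonic length was 2626.5 bases against 1016 bases for the 5510 other lincRNA genes, and 21.1% against 5.95% had a single exon, Neat1, Malat1 and Norad among them. A start within 1000 bases of, and pointing away from, the start of a protein-coding gene was found for 15 members (13.2%), against 3.76% of the others. Longer exons collect more read pairs, so the limit of 50 pairs favours long genes, and no test is given. Members lay on 20 chromosomes, with the most, 15, on chromosome 5.

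The counts ignore strand, so read pairs in exons shared by genes on opposite strands were left out as ambiguous and could not be assigned. Exons of 47 members (41.2%, against 14.2% of the other lincRNA genes) overlapped an exon of another gene, 36 of them on the opposite strand and 18 on the same strand, where the partner was mostly a small RNA gene inside the host. Pairs in exons shared by genes on the same strand are ambiguous in every column, and the counts do not show them. For overlaps on opposite strands the number of pairs left out can be read from the files, because the strand-specific columns keep them. The libraries were not strand-specific, so these columns also hold pairs of the partner gene in the shared exons. The excess is therefore not a loss of lincRNA pairs alone. The sum of the 2 columns exceeded the unstranded column by more than 5% in 29 members and was more than 2 times as large in 18.

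The ratio was largest at Gm36026, which shares exonic bases with the keratin gene Krt8 and held 171 times as many pairs in the strand columns. It was 34.6 at Gm17275, which faces the histone gene H3f3a, and 33.0 at Gm19710, which faces Hax1 and Ubap2l. For these genes the counts describe only the stretch outside the overlap. Among the abundant members the ratio was 1.00 at Neat1, Cyrano, Norad, 1700001L05Rik and Mir17hg, and 1.25 at Malat1, which faces the unverified transcript Gm37376. Neat1 and Mir17hg share 1.85% and 15.2% of their exonic bases with genes on the same strand. Pairs left out there do not appear in the ratio.

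**Figure D2:**
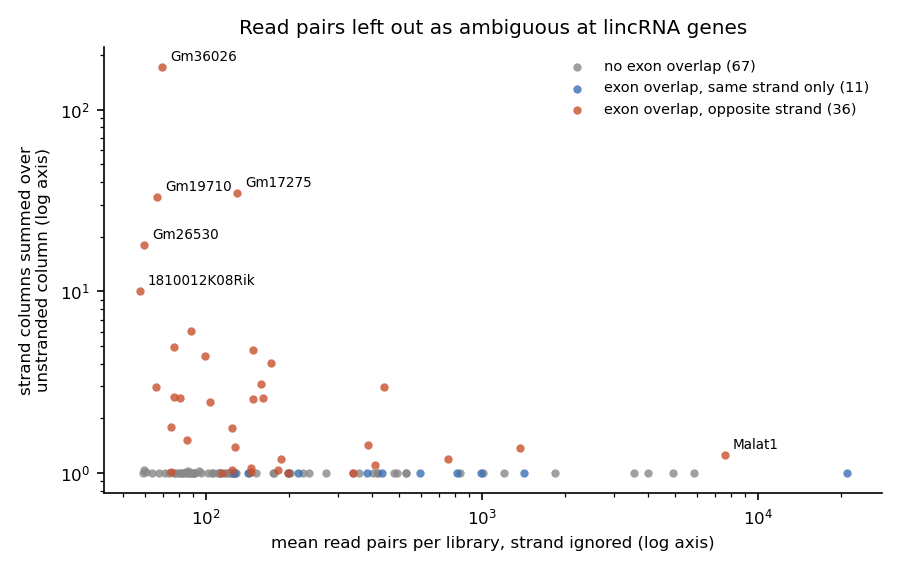
Each point is a lincRNA gene, with mean read pairs per library on the x axis and the sum of the strand columns over the unstranded column on the y axis, both log axes, coloured by exon overlap with another gene. Ratios far above 1 occur at genes with an opposite-strand exon overlap, mostly those with few read pairs, and reach 171 at Gm36026.

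INT-777 was compared with DMSO to see which transcripts differed with the treatment. The part of TGR5 in any difference was not tested. With treatment as the only term, none of the 114 members passed the threshold (edgeR quasi-likelihood test, Benjamini-Hochberg adjusted p under 0.05 over all 15998 genes), where 1.45% of all genes tested did, 0.688% higher and 0.763% lower. At an unadjusted p under 0.05 there were 13 members, 7 higher and 6 lower, or 11.4% against 16.4% of all genes. DESeq2 called 4 members, Cyrano and AI427809 lower and Mir17hg and 1700001L05Rik higher, where it called 4.99% of all genes, 2.31% higher and 2.68% lower. The median absolute log2 change was 0.161 for members and 0.127 for all tested genes. An absolute log2 change above 0.5 was found in 3 members and in 8.97% of all tested genes, and the median log2 change was −0.04 for members and 0.00 for all genes.

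With the day as a block, which compares the 2 libraries of the same day, 8 members were higher with INT-777 and 8 lower (edgeR, same threshold). That is 14.04% of members against 21.3% of all tested genes (11.1% higher and 10.3% lower). The members were measured with fewer read pairs, a median of 127 per library against 893 for all tested genes, and with larger errors, a median SE of 0.142 against 0.0698 on the log2 scale. For each of the 16 the daily ratios had 1 sign on the 3 days, as in 47 of all 114 members. The 16 were chosen by a fit to these same ratios, which favours such a pattern. In 13 of the 16 the DMSO and INT-777 libraries did not overlap. Non-overlap as such was common: 26 members (22.8%) and 24.5% of all genes showed it. Without both libraries of day 3, 20 members passed, 10 in each direction, where 26.8% of all genes did, and 12 of the 16 were among them. The libraries of days 1 and 2 were also part of the fit that chose the 16. The 16 genes are described by role below, with the adjusted p from the fit without the block followed by that with it.

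**Figure D3:**
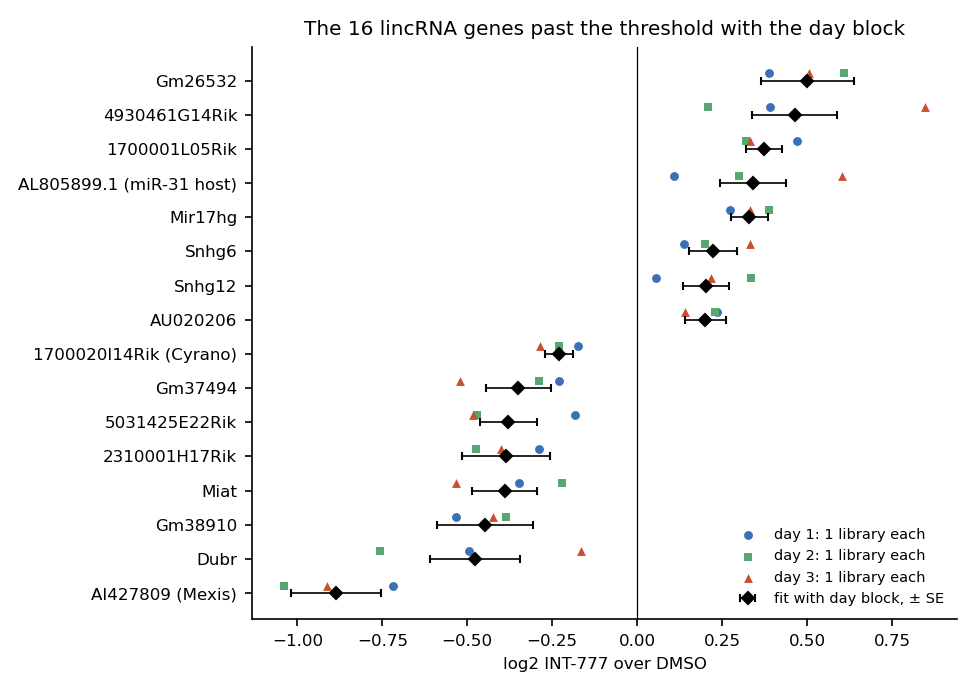
For the 16 lincRNA genes past the threshold with the day block, the x axis gives the log2 ratio of INT-777 over DMSO, as the fitted value with its SE (black diamond) and as the ratio of the 2 libraries of each day (coloured points). All daily ratios of a gene lie on the same side of 0, from −1.04 for AI427809 on day 2 to 0.85 for 4930461G14Rik on day 3. The genes were chosen by a fit to these same ratios.

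Among microRNA hosts, Mir17hg stood at 28.2, 27.8 and 25.1 CPM on days 1, 2 and 3 with DMSO and at 34.1, 36.3 and 31.6 CPM with INT-777. Every INT-777 library lay above every DMSO library, a log2 change of 0.33 ± 0.07 (SE; adjusted p = 0.0937 without the block and 0.000632 with it). The miR-31 host AL805899.1, on chromosome 4, was at 8.45, 7.86 and 8.15 CPM with DMSO and 9.095, 9.675 and 12.4 CPM with INT-777. Its groups did not overlap either, and its log2 change with the block was 0.34 ± 0.10 (adjusted p = 0.242 and 0.0215). The ratio of the day 3 libraries, 0.60 on the log2 scale, was the largest of its 3 days. Gm26532, whose only exon overlaps the gene of miR-24-2 on chromosome 8, held no whole mature microRNA on its own strand and was not counted as a host. It had 103, 97 and 109 read pairs with DMSO and 138, 153 and 156 with INT-777, without overlap. Its log2 change with the block was the highest of all members, 0.50 ± 0.14 (adjusted p = 0.136 and 0.0169). The let-7 host 6720427I07Rik did not pass, at 164, 166 and 247 pairs with DMSO and 163, 187 and 261 with INT-777. Neither did Ftx, a host of miR-374b and miR-421 in the X-inactivation region (0.22 ± 0.09, adjusted p = 0.0882 with the block). The member hosts 4833445I07Rik (miR-191 and miR-425) and 2900076A07Rik (miR-1839) did not pass either. A list drawn up as non-coding microRNA hosts had 5 tested genes. It included Mirt1, in which no mature microRNA was found on its own strand. It left out AL805899.1, Gm26532 and the member hosts 6720427I07Rik, 4833445I07Rik, 2900076A07Rik and Snhg20. With the block 1 of the 5 was higher, Mir17hg, and 0 lower. That is 20% of the list, against 21.3% of all genes.

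Of the members that host snoRNAs, Snhg6 held 14.4, 15.2 and 15.1 CPM with DMSO and 15.9, 17.5 and 18.96 CPM with INT-777. The groups did not overlap (log2 change 0.22 ± 0.07 with the block, adjusted p = 0.24 without it and 0.0336 with it). Snhg12 stood at 22.02, 19.4 and 17.9 CPM with DMSO and 22.9, 24.5 and 20.8 CPM with INT-777, where the lowest INT-777 library lay within the DMSO range (0.20 ± 0.07, adjusted p = 0.356 and 0.0463). Snhg20 at 0.14 ± 0.08 and Epb41l4aos at 0.26 ± 0.11 did not pass with the block (adjusted p = 0.223 and 0.109), and Snhg18 had a negative value, −0.27 ± 0.10 (adjusted p = 0.0593).

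A wider list of non-coding snoRNA hosts, most of them of other biotypes, had 17 tested genes. Without the block 0 of the 17 passed (edgeR; 3 had an unadjusted p under 0.05, and DESeq2 called 0), and with it 5 were higher and none lower: Gas5, Snhg5, Snhg6, Snhg12 and Dancr, with Snhg5 at 0.21 ± 0.05 (adjusted p = 0.00546). That is 29.4% of the list, against 21.3% of all genes. The list's median log2 change was 0.14, against 0.00 for all genes, and 12 of the 17 had a positive value. Among 17 subunits and adaptors of the nuclear exosome, which degrades many nuclear non-coding RNAs, 8 were higher and none lower with the block, 47.1% against 21.3% of all genes, with a median of 0.16, and 0 passed without it (edgeR; 6 at an unadjusted p under 0.05, and 1 by DESeq2). Of 12 paraspeckle proteins 1 was higher with the block, Dazap1, and of 16 nuclear speckle proteins 2 were, Srsf2 and Rnps1, with 0 lower in either list. These are 8.33% and 12.5% of the lists, below the 21.3% of all genes.

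Of 12 tested genes on a list of well-studied long non-coding RNAs, 7 of them members, 1 was lower with the block, Miat, and 0 higher. That is 8.33% of the list, against 21.3% of all genes. The list's median log2 change was −0.09. Of 4 tested imprinted non-coding RNAs, none of them a member, 1 was lower with the block, Peg13, or 25% against the same 21.3%. Cyrano was not on the list but is among the best known members. It was at 134, 134 and 140.2 CPM with DMSO and at 118.5, 114 and 115 CPM with INT-777. Its groups were separated by a wide gap for their spread, 136 ± 3.64 against 116 ± 2.23 CPM (SD, n = 3), and the log2 change of −0.23 ± 0.05 narrowly missed the threshold without the block (adjusted p = 0.0642) and passed with it (0.00101). The precursor gene Mir7-1, which lies in an intron of a protein-coding gene, had 21 to 38 read pairs and did not pass (adjusted p = 0.627 with the block).

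Miat had 226, 257 and 839 read pairs with DMSO and 182, 228 and 584 with INT-777. Its day effect was larger than its treatment difference, so the groups overlapped, and within each day INT-777 was lower (−0.39 ± 0.10 with the block, adjusted p = 0.818 without it and 0.00857 with it). Without the day 3 libraries it did not pass. For Neat1 (−0.15 ± 0.06, adjusted p = 0.0803 with the block), Norad (−0.08 ± 0.04, 0.232) and Malat1 (0.06 ± 0.04, 0.358) no fit with all 6 libraries passed. Malat1 passed without the day 3 libraries, at 0.09 ± 0.03 (adjusted p = 0.0316). Jpx, an activator of Xist, was not called (−0.20 ± 0.11, adjusted p = 0.234 with the block), and Xist itself had 13 to 27 read pairs.

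AI427809, named Mexis in RefSeq, had the largest difference of the 114. It is known as a transcript induced by the sterol receptors LXR that promotes transcription of the cholesterol exporter gene Abca1 in macrophages. Read pairs were 167, 159 and 260 with DMSO and 104, 80 and 139 with INT-777, and the INT-777 library was lower on every day, with daily log2 ratios of −0.72, −1.04 and −0.91. The mean of 2.29 ± 0.651 CPM (SD, n = 3) was 1.85-fold lower than the 4.23 ± 1.20 CPM with DMSO (adjusted p = 0.174 without the block and 0.000216 with it). Abca1, 101461 bases downstream on chromosome 4, had 18, 16 and 33 read pairs with DMSO and 31, 31 and 48 with INT-777, a log2 value of 0.70 ± 0.27 with the block that did not pass (adjusted p = 0.0795). The gene of LXR alpha, Nr1h3, was higher with the block (0.31 ± 0.08, edgeR, adjusted p = 0.0104) but did not pass without it (0.292). That of LXR beta, Nr1h2, was at 0.03 ± 0.04 with the block (adjusted p = 0.716).

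Most of the other called members are known only by a clone or predicted-gene name. The largest in read pairs, 1700001L05Rik, was at 33.9, 36.4 and 32.8 CPM with DMSO and 47.0, 45.4 and 41.2 CPM with INT-777. The groups did not overlap, and the change of 0.37 ± 0.07 on the log2 scale, or 1.30-fold, had the lowest adjusted p of all members without the block (0.0527) as well as with it (0.000157). Its promoter is the RefSeq window from 250 bases before to 50 bases after the start, chr15:83367248-83367547 on the minus strand of GRCm38. It holds 2 copies of CACGTG, a sequence that is the same on both strands and is known as an E-box, in capitals.
1700001L05Rik: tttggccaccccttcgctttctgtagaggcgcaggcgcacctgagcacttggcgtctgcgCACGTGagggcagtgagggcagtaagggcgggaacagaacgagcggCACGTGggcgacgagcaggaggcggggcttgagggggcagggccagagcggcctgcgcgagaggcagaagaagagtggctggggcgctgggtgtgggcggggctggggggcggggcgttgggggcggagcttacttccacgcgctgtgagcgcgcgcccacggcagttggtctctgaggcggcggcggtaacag
The motif was found in 7.15% of all 32851 windows of RefSeq, and 0.594% held it 2 or more times. Of 62 windows of 56 members 6 held it (9.68%), among them those of Jpx and 1810008I18Rik. The motifs TGACGTCA and TGANTCA, where N is any base, were also counted. They were found in 3 and 7 of the 62 windows. These are 4.84% and 11.3%, against 1.79% and 7.81% of all windows, and the differences were not tested. The sequence of 1700001L05Rik is shown as a description of the window, and no binding was measured.

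Higher with the block were also AU020206 (0.20 ± 0.06, adjusted p = 0.0297) and 4930461G14Rik (0.46 ± 0.12, 0.0148). For 4930461G14Rik the read pairs were 213, 242 and 138 with DMSO and 286, 289 and 250 with INT-777, and its largest ratio, 0.85, was on day 3, when its DMSO library was lowest. Lower were 5031425E22Rik (−0.38 ± 0.08, 0.00446), Dubr (−0.48 ± 0.13, 0.0174), Gm37494 (−0.35 ± 0.10, 0.0161), 2310001H17Rik (−0.39 ± 0.13, 0.0446) and Gm38910 (−0.45 ± 0.14, 0.0344). Dubr, a lincRNA studied in muscle differentiation, had 190, 258 and 186 read pairs with DMSO and 138, 158 and 167 with INT-777, without overlap. None of these 7 passed without the block, where the adjusted p ran from 0.202 for AU020206 to 0.378 for Gm38910.

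The cell type markers differed along with the treatment. Summed goblet markers ran from 5565 to 28229 CPM with DMSO and from 2901 to 12450 with INT-777, enterocyte markers from 733 to 1035 and from 454 to 540 CPM, and stem cell markers from 2123 to 2559 and from 1731 to 2193 CPM. On every day the INT-777 library had the lower sum for each of these 3 lists and for Paneth and enteroendocrine markers, and the higher sum for tuft markers (25.4 to 34.6 CPM with DMSO and 29.3 to 39.95 with INT-777). The part of these differences in the lincRNA values was not tested, and in bulk RNA fewer cells of a type and less RNA per cell cannot be told apart.

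Of the 16 called members, 7 had no exon overlap with any gene. In 13 of the 16 the strand columns were within 5% of the unstranded count, a measure that does not show same-strand overlap. The exceptions were Miat, at a ratio of 1.42 against the antisense lincRNA Gm26953, Snhg6, at 1.19 against Mcmdc2, and 2310001H17Rik, at 1.06 against Gm47861. The non-coding genes of other biotypes that passed the same limit of 50 pairs gave 4 of 81 antisense genes (4.94%) and 13 of 78 processed transcripts (16.7%) past the threshold with the block, and protein-coding genes gave 27.2%. Median read pairs per library were 120 for antisense genes, 251 for processed transcripts and 1860 for protein-coding genes. Of 236 lincRNA genes that were tested but fell below the limit of 50 pairs, 13 passed with the block (5.51%, against 21.3% of all genes), 6 higher and 7 lower, and 0 without it (edgeR; 28 at an unadjusted p under 0.05, and 2 by DESeq2).

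Because lincRNA transcription can follow that of a neighbour, each member was set beside its nearest protein-coding gene. Of the 114 neighbours 94 had been tested. Over these 94 pairs the log2 changes with INT-777 had a Pearson r of 0.065, and the 2 genes of a pair had the same sign in 53. The pairs share their libraries, and the values describe these 6 libraries only. The pairs were then grouped by arrangement. For 21 members that lay downstream of the neighbour on the same strand, at a median distance of 3742 bases, r was 0.57 and 16 of 21 pairs had the same sign. For 19 overlapping pairs r was 0.44, for 24 head-to-head pairs 0.24, for 13 tail-to-tail pairs 0.14 (with a Spearman rho of −0.24 and the same sign in 6), and for 17 members upstream of the neighbour on the same strand −0.24. The differences between these classes were not tested.

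**Figure D4:**
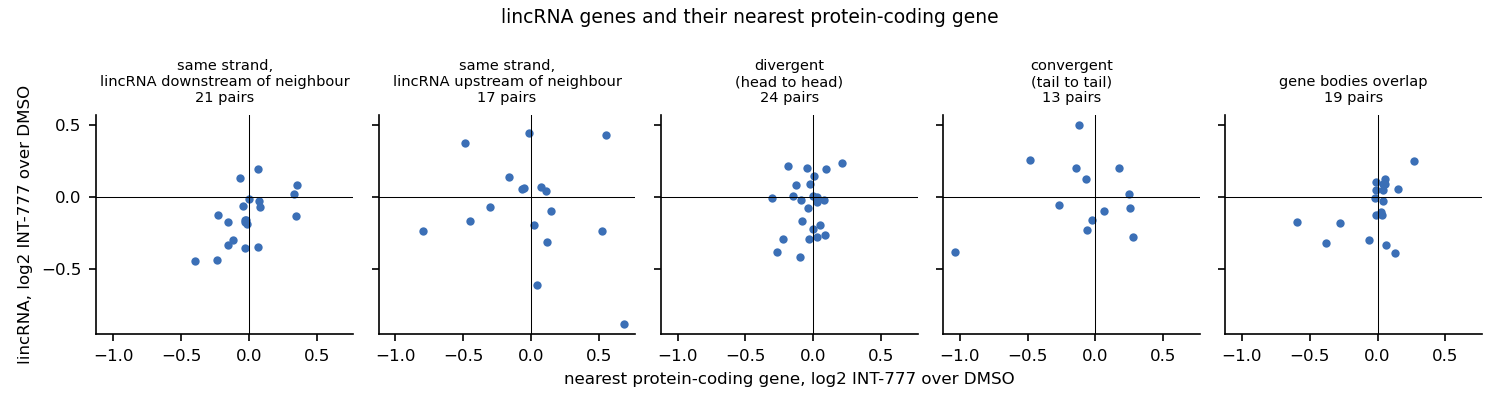
Each panel shows 1 arrangement of lincRNA and nearest protein-coding gene, with the log2 change of the neighbour on the x axis and that of the lincRNA on the y axis (INT-777 over DMSO, fit without the block). Points lie along the diagonal most clearly for lincRNA genes downstream of the neighbour on the same strand (21 pairs, r = 0.57).

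Gm38910, the called member with the closest upstream neighbour on the same strand, starts 1526 bases past the end of Mansc1. Both were lower with the block, at −0.45 ± 0.14 and −0.40 ± 0.06 (adjusted p = 0.0344 and 0.000226), and neither passed without it (0.378 and 0.193). Without strand a read-through from Mansc1 into Gm38910 cannot be told apart from a separate transcript. 5031425E22Rik and the histone methyltransferase gene Kmt2e start 172 bases apart in opposite directions. 5031425E22Rik stood at 11.2, 12.0 and 15.5 CPM with DMSO and at 9.84, 8.65 and 11.1 CPM with INT-777. Kmt2e was at 117, 122 and 118 CPM with DMSO and 103, 101 and 92.9 CPM with INT-777, and it too was lower with the block (−0.27 ± 0.04, adjusted p = 0.0649 without it and 0.000415 with it).

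For the next pairs the change with the block is followed by its adjusted p with and then without the block. 1700001L05Rik was higher while Arfgap3, the gene of a Golgi GTPase activator whose start lies downstream on the same strand, was lower with the block (−0.47 ± 0.06, adjusted p = 0.00012 and 0.388). Pvt1, which lies 47612 bases from the proto-oncogene Myc, was at −0.14 ± 0.14 (adjusted p = 0.514 and 0.717), and Myc was higher with the block (0.35 ± 0.04, 5.66e-05 and 0.252). Lockd, downstream of the cell cycle inhibitor gene Cdkn1b, was at −0.17 ± 0.18 (adjusted p = 0.586 and 0.714), and Cdkn1b was lower with the block (−0.15 ± 0.04, 0.0169 and 0.174). 2310001H17Rik was lower with the block (−0.39 ± 0.13, 0.0446 and 0.322), and so was its neighbour Clec2d (−0.93 ± 0.23, 0.0127 and 0.403).

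The days were then compared in a model of treatment and day. The F-test of the day terms called 13 members (11.4%, against 20.5% of all genes), 11 of them higher and 2 lower on day 3 than on the mean of days 1 and 2 (11.9% and 8.61% of all genes). Regardless of the test, 77 of 114 members (67.5%) were higher on day 3, against 51.4% of all tested genes. In the comparison of treatments the members' median log2 ratio of INT-777 over DMSO was 0.04, −0.03 and −0.14 on days 1, 2 and 3, while for all genes it stayed between −0.003 and 0.008.

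Miat had the largest day difference, 1.67 on the log2 scale (edgeR, adjusted p = 1.25e-08): its 2 day 3 libraries, at 18.1 and 12.5 CPM, stood above the range of 3.86 to 5.58 CPM of the other 4. Snhg18, which hosts the snoRNA Snord123, was at 12.9 CPM with DMSO and 9.12 CPM with INT-777 on day 3 and at 6.40 to 7.99 CPM otherwise (0.56, adjusted p = 0.00211). The let-7 host 6720427I07Rik had 5.33 and 5.585 CPM on day 3 and 3.46 to 3.93 CPM otherwise (0.59, 0.00512). For both, the day 3 libraries of the 2 treatments lay above all 4 others.

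AI427809 was likewise higher on day 3 (0.65, adjusted p = 0.00643), with 5.61 CPM in the DMSO and 2.97 CPM in the INT-777 library, but here the INT-777 library of day 3 lay within the DMSO and INT-777 range of the other days, 1.68 to 3.63 CPM. Lower on day 3 were Malat1 (−0.28, 0.00109) and 9330102E08Rik (−0.77, 0.0151), the latter with 57 read pairs in each day 3 library against 80 to 110 otherwise. Of the 13 genes, 5031425E22Rik, AI427809, Gm38910 and Miat also passed in the comparison of treatments with the block, all 4 higher on day 3 and lower with INT-777.

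**Figure D5:**
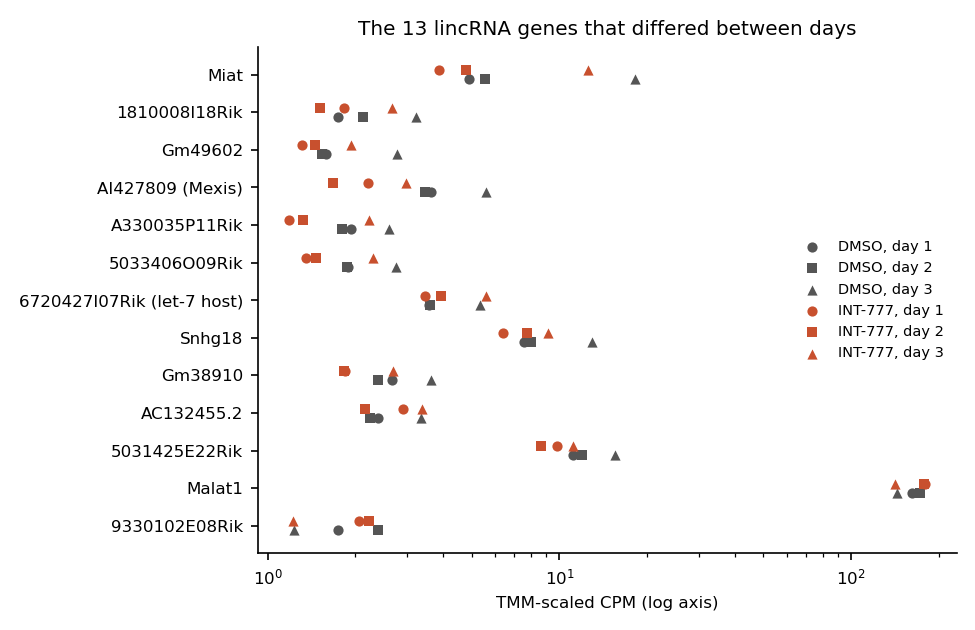
TMM-scaled CPM (log x axis) of the 13 lincRNA genes called by the test of days, in each of the 6 libraries (grey, DMSO; orange, INT-777; triangles for day 3). In 11 genes the day 3 libraries are shifted to higher values, most in Miat, and in Malat1 and 9330102E08Rik to lower ones.

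Day 3 also differed in its cell type markers and RNA quality. Goblet markers summed to 28229 and 12450 CPM on day 3 and to between 2901 and 5661 CPM on days 1 and 2, with 7 of 8 markers called higher. Enteroendocrine markers summed to 2613 and 2063 against 543 to 594 CPM, again with 7 of 8 called higher, and stem cell markers to 2123 and 1731 against 2173 to 2559 CPM. Immune markers reached 3.70 and 3.82 CPM against at most 0.651, with 7 of 8 under 1 CPM in all libraries. The part of these differences, and of the RNA integrity numbers, in the lincRNA values was not tested.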

How the data were processed

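RNA was sequenced as paired reads of 100 bases on BGISEQ-500, per the labels' protocols. The authors used FastQC, STAR 2.73a and edgeR 3.24.3 with the builds GRCm38 and mm10, per the submitters' processing notes. Which annotation version they used was not given in the sources used here. Deposited counts are whole read pairs per gene, not normalised, as STAR writes them. Counts without regard to strand were used, since the first strand column held 50.1 to 50.6% of stranded pairs. Lines that name no gene were left out, and 74.5 to 75.6% of pairs remained. Of 54838 gene IDs 54809 matched GENCODE M21.

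Counts were filtered with filterByExpr, scaled by TMM and tested with edgeR 4.0.16 (quasi-likelihood, robust, two-sided) in R 4.3.3, with Benjamini-Hochberg adjustment over 15998 genes. DESeq2 1.42.0 was an alternative. SE is the size of the log2 change divided by the root of F. The tests were tested on simulated counts. Copies were searched with BLAST+ 2.17.0. Sequences come from the GENCODE transcripts and RefSeq tables, all GRCm38.

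The labels state that replicates of 1 number share a day. For days 1, 2 and 3, the DMSO and INT-777 libraries' deviations from their group means had correlations of 0.329, 0.369 and 0.632. Between days 1 and 2 they were similar, at 0.336 and 0.363, and between day 3 and the other days −0.487 to −0.435. The values set day 3 apart and do not show pairing within days 1 and 2. Whether both libraries of a day came from 1 pool of mice is not given. p-values measure the spread between these samples.

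Members and lists were chosen with earlier results of these data known. Named genes are the 10 highest by CPM and per kilobase, the 10 of smallest p each way with the block, the 5 of smallest p each way between days, list members, those at the limit, and nearest protein-coding genes; others were chosen after their values were seen. Alternatives were the day block, RLE scaling, DESeq2, other filters, 1 strand column, other member limits, no overlapping members, and leaving out each library or day.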

Additional observations from a re-analysis of the deposited data

How the results depend on the processing

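The number of members past the threshold depended on the model. It was 0 without the block and 8 higher and 8 lower with the replicate block. It was 2 higher and 2 lower with DESeq2, 2 higher without a low-count filter, 1 higher with the column 3 counts, and 1 lower (Cyrano) with 50 read pairs required of all genes. Leaving out single libraries or days gave 0 to 10 higher and 0 to 10 lower, the 10 in each case without day 3, and 1 higher without INT-777 replicate 3. Over all genes, 110 were higher and 122 lower without the block, 1770 and 1645 with it, 369 and 429 with DESeq2, 186 and 249 without a filter, and 0 to 2225 and 0 to 2067 with libraries or days left out; the largest counts came without day 3 and the smallest without day 1. Leaving out replicate 1 or 2 of either group gave 2 to 7 higher and 6 to 12 lower. The cause was not tested. The 13 members that differed between days became 7 with the column 3 counts, 22 with a limit of 20 read pairs (192 genes) and 6 with a limit of 100 (61 genes). Of 40 members followed by name, 28 kept their sign under every alternative run and 12 did not. Gm26917 changed from −0.15 to between −0.32 and 0.16 with libraries or days left out, and it passed with the positive value, without day 3. Members had a median of 127 read pairs per library and a median SE of 0.142 with the block, against 893 and 0.0698 for all genes, and the part of depth in the number of calls was not tested.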
